A study of Mus musculus with 6 samples.

Results

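The genes described here are 10 cytokines, chemokines and receptors known from kidney tubule cells, read in a mouse collecting duct line that carried either wild-type ILK or its T173I variant. They are Il34, Csf1, Csf1r, Il18, Il18r1, Il6, Cxcl1, Ccl2, Cx3cl1 and Lif, which makes 10 of the 22180 genes with a value of their own. They were chosen by function and by their T173I minus wild-type difference on these same arrays, so that difference is given for them as a description and without a test. Each of the 10 had exactly 1 probe set that the platform annotation assigns to it alone. The values are log2 signals from the RMA procedure, so a step of 1 is a doubling of signal, and signals of different probe sets are not set against each other.

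The study used IMCD cells, an epithelial line from the inner medullary collecting duct of the mouse kidney, cultured in medium with serum and transduced with a lentivirus whose bicistronic vector expressed GFP together with ILK. The ILK protein (integrin-linked kinase) couples integrins to actin at focal adhesions. The wild-type group is 3 arrays of cells with wild-type ILK, and the T173I group is 3 arrays of cells with the missense variant ILK-T173I. Both groups were treated for 15 minutes with 20 ng/ml EGF, then left for another 1 hour before RNA extraction, so unstimulated cells, cells without an ILK vector and the response to EGF itself were not analysed here. The labels call the arrays of a group biological replicates. The sources used here do not say how many lines each group holds, so variant and line cannot be told apart, and p-values measure the spread between these arrays, which may be technical. In bulk RNA, fewer cells that express a gene and less RNA per cell cannot be told apart.

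Tubule epithelium makes signals that recruit and maintain leukocytes. IL-34 and CSF1 are separate ligands of the same receptor kinase, CSF1R, which macrophages need to survive and divide. IL-18 is made as a precursor that caspase-1 cleaves, and it acts through a receptor built from IL18R1 and IL18RAP, with IL18BP as a soluble decoy. LIF and IL-6 share the signal-transducing chain gp130, which is the product of Il6st and drives STAT3. CXCL1 attracts neutrophils, CCL2 attracts monocytes, and CX3CL1 (fractalkine) is a membrane-bound chemokine that is released by shedding.

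Of the 10 genes, 7 passed the filter that removed the 40% of genes with the lowest mean signal (a mean over all arrays of 5.37 or less). Il18, Il6 and Ccl2 did not pass. Ccl2, at a mean of 5.28, lay closest below the limit, and Il34, at 6.34, closest above it. The 3 T173I arrays all lay above the wild-type arrays for Il34 and Il18r1 and all below for Csf1r, and the groups overlapped for the other 4 that passed (Csf1, Cxcl1, Cx3cl1 and Lif). Over the 13308 genes tested, all 3 T173I arrays lay above in 7.23% and all below in 7.95%, 15.2% in all. Nothing is read from the members' count against these shares, because the members were chosen with this contrast known.

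**Figure D1:**
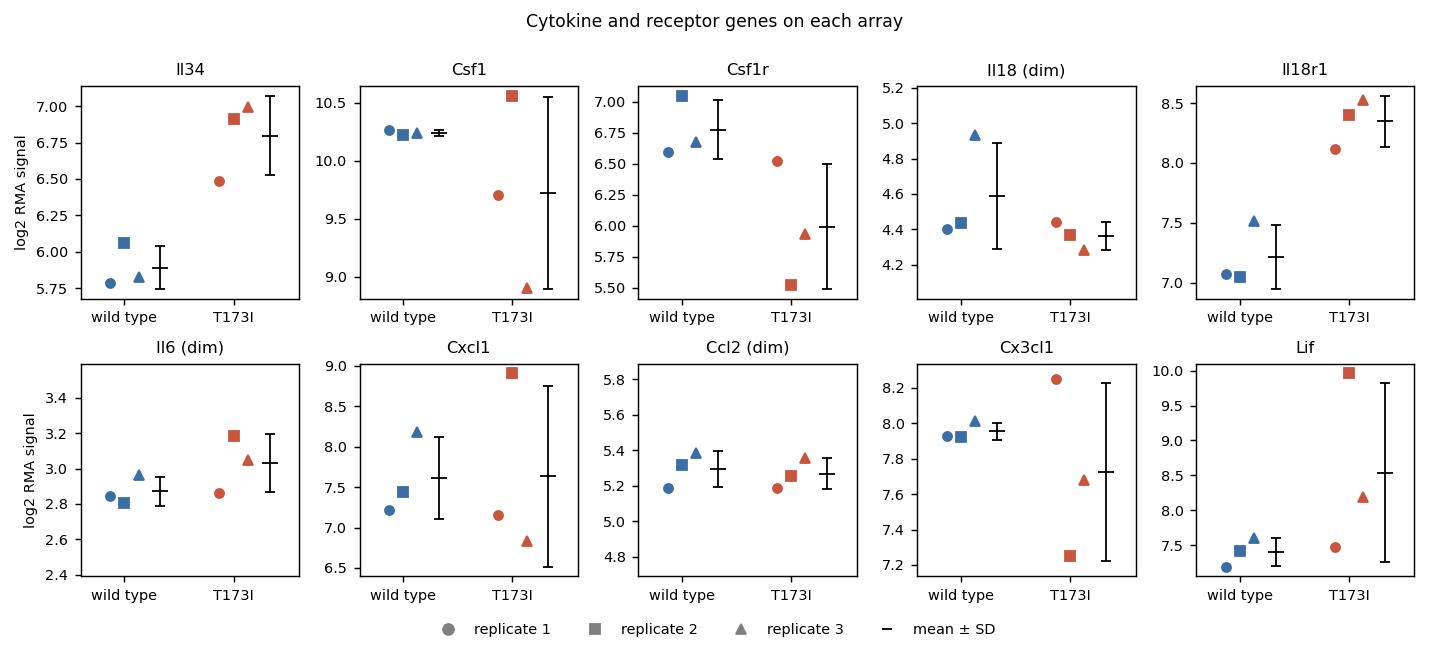
Log2 RMA signal (vertical axes, each gene on its own scale) of the 10 genes on the 3 wild-type arrays (blue) and the 3 T173I arrays (red), with the symbol giving the replicate number and the black bar the mean ± SD; genes under the signal filter are marked dim. Il34 and Il18r1 show the T173I arrays above all wild-type arrays, Csf1r shows them below, and Lif, Cxcl1 and Csf1 peak on T173I replicate 2.

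The T173I arrays differed among themselves. T173I replicate 2 had the highest value of the 6 arrays for 4 of the 10 genes, namely Lif, Cxcl1, Csf1 and the dim Il6. Among the 7 genes that passed the filter it was the highest array for 3 and the lowest for 2. Over all genes tested it was the highest array in 22.4% and the lowest in 31.2%, and its median signal was 5.52 against 5.45 to 5.48 on the other 5 arrays. The SD was larger in the T173I group than in the wild-type group for 6 of the 7 members that passed the filter, as for 70.6% of all genes tested. RefSeq (GRCm38.p6) promoter windows were given for 7 of the 10 members. Those of the 4 genes that peaked on T173I replicate 2 are printed because these genes shared 1 array as their maximum. They were grouped by these same values, and the dim Il6 is among them, so nothing is read from matches they share. Each line gives the 250 bases before the annotated start, 5′ to 3′ on the transcribed strand, with capitals marking matches, on either strand, to the NF-kB consensus, to the AP-1 motif TGANTCA or to the Ets motif GGAAGT.
Lif: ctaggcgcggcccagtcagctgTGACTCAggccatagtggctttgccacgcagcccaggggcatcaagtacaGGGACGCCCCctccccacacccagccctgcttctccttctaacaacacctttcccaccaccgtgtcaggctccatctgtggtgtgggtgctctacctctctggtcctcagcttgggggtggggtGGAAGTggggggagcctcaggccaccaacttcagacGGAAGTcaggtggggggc
Cxcl1: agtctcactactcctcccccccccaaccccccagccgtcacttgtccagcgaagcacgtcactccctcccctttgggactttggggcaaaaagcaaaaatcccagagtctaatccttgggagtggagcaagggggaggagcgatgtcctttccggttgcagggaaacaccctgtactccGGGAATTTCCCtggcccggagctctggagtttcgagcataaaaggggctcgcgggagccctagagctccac
Csf1: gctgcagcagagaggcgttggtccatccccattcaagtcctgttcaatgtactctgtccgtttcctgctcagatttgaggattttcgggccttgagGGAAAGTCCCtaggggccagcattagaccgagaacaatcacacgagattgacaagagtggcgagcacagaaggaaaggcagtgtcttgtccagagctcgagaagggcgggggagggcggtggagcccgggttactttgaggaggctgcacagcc
Il6: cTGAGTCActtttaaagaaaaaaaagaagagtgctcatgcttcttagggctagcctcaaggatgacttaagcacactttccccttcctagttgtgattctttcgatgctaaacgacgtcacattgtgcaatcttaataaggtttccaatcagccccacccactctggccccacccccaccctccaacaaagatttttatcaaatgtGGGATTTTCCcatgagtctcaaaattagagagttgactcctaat

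The Lif window lies at chr11:4257318-4257567 on the plus strand, the Cxcl1 window at chr5:90890995-90891244 on the plus strand, the Csf1 window at chr3:107760470-107760719 on the minus strand, and the Il6 window at chr5:30012864-30013113 on the plus strand. The Lif window held 1 NF-kB, 1 AP-1 and 2 Ets matches. The Cxcl1 window held 2 NF-kB matches, on opposite strands and overlapping each other by all but 1 base at either end, which appear as a single run of capitals. The Csf1 window held 1 NF-kB match, and the Il6 window held 1 NF-kB and 1 AP-1 match. In the windows of Il18, Il18r1 and Cx3cl1, the only match was 1 Ets site. It lay in the stretch shared by 2 of the 3 overlapping or neighbouring Il18r1 windows. Of all 32851 windows, cut to the same length, 7.25% held an NF-kB match, 6.75% an AP-1 match and 19.7% an Ets match. These matches describe the letters of the windows; no binding was measured.

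Il34, which encodes a cytokine that maintains resident macrophages, was at 5.79, 6.06 and 5.83 on wild-type replicates 1, 2 and 3. It was at 6.49, 6.91 and 6.99 on T173I replicates 1, 2 and 3. Every T173I array lay above every wild-type array, with a gap of 0.43 between the groups. The means were 5.89 ± 0.15 (SD, n = 3) and 6.80 ± 0.27 (SD, n = 3), a log2 difference of 0.91 or 1.87-fold. With each array left out in turn the difference stayed between 0.81 and 1.06. Next to Il34 in the assembly, Mtss2 and Sf3b3 had differences of -0.17 and -0.13, opposite in sign to that of Il34.

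Csf1, the other ligand of CSF1R, was nearly constant on the wild-type arrays, at 10.27, 10.22 and 10.24. On the T173I arrays it was at 9.71, 10.56 and 8.90. T173I replicates 1 and 3 thus lay below the wild-type range and replicate 2 above it. The means were 10.24 ± 0.023 (SD, n = 3) and 9.72 ± 0.83 (SD, n = 3), a difference of -0.52. Leaving out T173I replicate 2 made that difference -0.94 and leaving out replicate 3 made it -0.11, so it rests on which of these arrays is included.

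Csf1r, the receptor of both ligands, was at 6.60, 7.05 and 6.68 on the wild-type arrays. It was at 6.52, 5.52 and 5.93 on T173I replicates 1, 2 and 3. All 3 T173I arrays were below the wild-type arrays, but replicate 1 only by 0.074. The means were 6.77 ± 0.24 (SD, n = 3) and 5.99 ± 0.50 (SD, n = 3), a difference of -0.78. Leaving out T173I replicate 1 gave -1.05, and leaving out replicate 2 gave -0.55. On T173I replicate 2, Il34 was 1.02 above its wild-type mean, Csf1 was 0.32 above its own and Csf1r stood at -1.25 relative to its own. On T173I replicate 3 the same genes stood at 1.10, -1.34 and -0.84, so the ligands went opposite ways there. On T173I replicate 1 they stood at 0.59, -0.53 and -0.25.

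CSF1R is best known from macrophages, and markers of macrophages and monocytes were therefore read beside it. Of 14 such markers 8 did not pass the filter, among them Ptprc (CD45), Adgre1, Itgam and Lyz2. The mean level of the 14 was 5.47 to 5.56 on the wild-type arrays and 5.39 to 5.49 on the T173I arrays. Of the 6 tested, 1 had a positive and 5 a negative difference, with a median of -0.23 against -0.011 over all genes tested. Before adjustment 1 higher and 3 lower had a limma p under 0.05, where 4.88% and 5.31% of all genes tested did. Cd68, a lysosomal glycoprotein, and Cd14, a co-receptor for lipopolysaccharide, differed in opposite directions, by 1.10 and -1.37 (limma adjusted p = 0.45 for each). Tyrobp and Cx3cr1, an adaptor and the fractalkine receptor of myeloid cells, had differences of -0.29 and -0.30 (limma adjusted p = 0.45 for each). The part of such cells in the Csf1r signal was not tested. The collecting duct label was read in the same way. Of 16 collecting duct markers 11 passed the filter, including Cdh1, Epcam, Krt8, Krt18, Gata3 and Aqp2, and 5 did not, namely Aqp3, Aqp4, Scnn1b, Tfap2b and Elf5. The mean level of the 16 was 7.38 to 7.40 on the wild-type arrays and 7.40, 7.09 and 7.21 on T173I replicates 1, 2 and 3. Of the 11 tested, 3 had a positive and 8 a negative difference. Before adjustment 2 higher and 1 lower had a limma p under 0.05, against 4.88% and 5.31% of all genes tested. Of these markers Gata3 differed by -0.78, Krt8 by 0.64, Krt18 by 0.44 and Scnn1g, a sodium channel subunit, by -1.19 (limma adjusted p = 0.45, 0.45, 0.45 and 0.49). Without T173I replicate 1 the Scnn1g difference was -1.80 and passed (adjusted p = 0.027). None of 6 endothelial markers passed, nor did the fibroblast markers Pdgfra, Pdgfrb, Dcn, Lum and Col3a1, while 4 of 9 fibroblast markers and 4 of 6 proximal tubule markers did.

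Of the other genes of the colony-stimulating factor axis, 4 of 11 were tested and 0 passed the adjusted threshold. The median difference of the 4 was 0.12, against -0.011 over all genes tested. Sdc1, syndecan-1, a proteoglycan known to bind IL-34, differed by 0.20 with a 95% interval of -0.024 to 0.43. Csf2ra, Kitl and Csf3 differed by 0.075, 0.16 and -0.13 (limma adjusted p = 0.50 to 0.80 for the 4). Ptprz1, another receptor of IL-34, did not pass the filter, at means of 3.79 and 3.47.

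Il18r1, the ligand-binding chain of the IL-18 receptor, was at 7.07, 7.05 and 7.52 on the wild-type arrays. It was at 8.11, 8.40 and 8.53 on T173I replicates 1, 2 and 3. The groups were separated by 0.59, the widest gap among the members. The means were 7.21 ± 0.27 (SD, n = 3) and 8.35 ± 0.21 (SD, n = 3), a difference of 1.13 or 2.19-fold. Leaving out each array in turn gave 1.04 to 1.29. The ligand gene Il18 did not pass the filter and was at 4.40, 4.43 and 4.94 in wild type and 4.44, 4.37 and 4.28 in T173I, where the groups overlapped. Its difference of -0.23 became -0.054 without wild-type replicate 3, the array on which it was highest.

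Il18r1 sits in a cluster of interleukin-1 receptor family genes. The gene on its other side in that cluster, Il18rap, which encodes the signalling chain of the IL-18 receptor, was under the filter, with means of 4.47 and 4.70. Il1rl2 and Il1r2 were also under it, with differences of 0.081 and -0.021. Il1r1, the receptor of interleukin-1, passed, with a wild-type mean of 9.61 ± 0.22 (SD, n = 3), a T173I mean of 9.65 ± 0.014 (SD, n = 3) and a 95% interval for the difference of -0.25 to 0.33. Of the cluster's genes with a value, Il18r1 was thus the 1 with the largest difference between the group means. It was chosen partly by that difference, and of the others only Il1r1 was tested, so nothing is read from this rank. Il18bp, the decoy of IL-18, had exactly the same value, 6.67, on all 3 wild-type arrays, and was at 6.48, 7.18 and 6.67 on the T173I arrays.

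Of 32 other genes of the interleukin-1 and interleukin-18 axis 14 were tested, and 0 passed the adjusted threshold of 0.05 in limma's test. Without adjustment, 3 had a p under 0.05 on the higher side and 1 on the lower side, where 4.88% and 5.31% of all genes tested did. The list's median difference was 0.022, with 9 positive and 5 negative. Il1rn, the interleukin-1 receptor antagonist, was at 7.73, 7.68 and 7.84 in wild type and at 7.78, 9.28 and 8.95 in T173I. T173I replicate 1 lay within the wild-type range and the other T173I arrays above it. The difference of Il1rn was 0.92 with a 95% interval of 0.052 to 1.78 (limma adjusted p = 0.49), and without T173I replicate 1 it was 1.36 and passed (adjusted p = 0.021). Casp4, the murine caspase-11 that senses lipopolysaccharide, had a difference of -1.36, with all T173I arrays below wild type (limma adjusted p = 0.45). Irak2, a kinase of the receptor complex, and Il1rap, its shared accessory chain, differed by 0.28 and 0.23, with all T173I arrays above (limma adjusted p = 0.46 and 0.49). Casp1, Nlrp3, Il1a and Il1b were under the filter.

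Lif, a cytokine of the interleukin-6 family, was at 7.19, 7.41 and 7.60 on the wild-type arrays. It was at 7.47, 9.96 and 8.19 on T173I replicates 1, 2 and 3. T173I replicate 1 lay within the wild-type range, while replicate 2 stood 2.56 above the wild-type mean, a 5.90-fold difference, and replicate 3 stood 0.79 above it. The means were 7.40 ± 0.21 (SD, n = 3) and 8.54 ± 1.28 (SD, n = 3), a difference of 1.14. Without T173I replicate 2 the difference was 0.43, and without T173I replicate 1 it was 1.67. Osm, the family member next to Lif in the assembly, was under the filter, with means of 5.30 and 5.23. Il6 was the dimmest member, at 2.84, 2.81 and 2.96 in wild type and 2.86, 3.19 and 3.05 in T173I, and its difference of 0.16 carries little information at such a signal.

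Of 23 other genes of the interleukin-6 family axis, 16 were tested. In limma's test 0 passed the adjusted threshold. Before adjustment 0 higher and 3 lower genes had a p under 0.05, against 4.88% and 5.31% of all genes tested. The median difference was -0.044, with 6 positive and 10 negative. The 3 lower genes were Il6st, Il6ra and Socs3. Il6st, which encodes gp130, was at 11.52, 11.35 and 11.44 in wild type and at 11.24, 10.43 and 10.43 in T173I. All T173I arrays lay below, replicate 1 closest to the wild-type arrays. Its difference was -0.74 with a 95% interval of -1.27 to -0.20 (limma adjusted p = 0.45), and without T173I replicate 1 it was -1.01 and passed (adjusted p = 0.021). Il6ra, the IL-6-binding chain, differed by -0.35 and Socs3, a STAT3-induced inhibitor of the same receptors, by -0.88, each with all T173I arrays below (limma adjusted p = 0.48 and 0.45). Osmr, the oncostatin M receptor, differed by -0.62 with overlapping groups (limma adjusted p = 0.49).

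A further 3 genes of that list were named after their values were seen, because they are the partners of Lif. Lifr, the LIF receptor, was at 6.72, 6.93 and 7.93 in wild type and 7.05, 6.05 and 5.48 in T173I, and the 95% interval for its difference was -2.11 to 0.11 (limma adjusted p = 0.50). Stat3 differed by -0.33 (limma adjusted p = 0.52). Clcf1, a further ligand that signals through LIFR, was at 7.72, 7.72 and 7.54 in wild type and 7.87, 9.58 and 8.22 in T173I, a difference of 0.89 (limma adjusted p = 0.50). On T173I replicates 2 and 3, then, Lif and Clcf1 were above their wild-type ranges while Lifr, Osmr, Il6st, Stat3 and Socs3 were below theirs. Other genes of the list did not follow this split. The ligand gene Il27 was below its wild-type range on both arrays, and the ligand gene Ctf1 was within its range on replicate 2. Jak1 was within its range on all T173I arrays. On T173I replicate 1 Lif, Lifr, Osmr and Stat3 lay within their wild-type ranges. Clcf1 lay above its range on that array too, and Il6st and Socs3 lay below theirs.

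**Figure D2:**
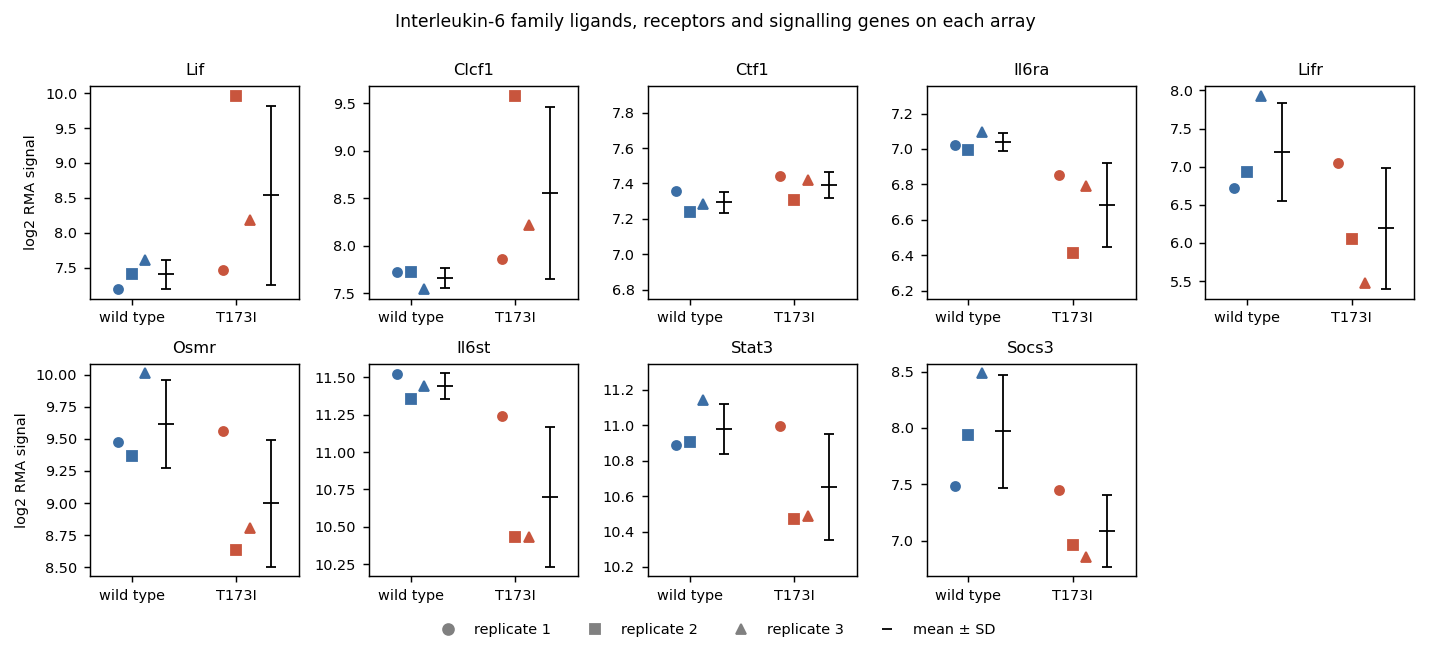
Log2 RMA signal (vertical axes, each gene on its own scale) of Lif and 8 other interleukin-6 family genes on the 3 wild-type arrays (blue) and 3 T173I arrays (red), with symbols for replicates and bars for the mean ± SD. On T173I replicates 2 and 3 the ligand genes Lif and Clcf1 lie above the wild-type arrays and the receptor genes Lifr, Osmr and Il6st below them. The ligand gene Ctf1 lies among the wild-type arrays on T173I replicate 2. On T173I replicate 1 Lif, Lifr and Osmr lie among the wild-type arrays, Clcf1 lies above them and Il6st below them.

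Cxcl1, the neutrophil chemokine, was at 7.22, 7.44 and 8.19 on the wild-type arrays and at 7.15, 8.90 and 6.84 on T173I replicates 1, 2 and 3. T173I replicate 2 was the highest and replicate 3 the lowest of the 6 arrays, and the group means, 7.61 ± 0.51 (SD, n = 3) and 7.63 ± 1.11 (SD, n = 3), differed by 0.016. The sign followed the arrays included, with -0.62 without T173I replicate 2 and 0.41 without T173I replicate 3. Cxcl2, the next gene in the same chemokine cluster, was at 6.02 on T173I replicate 2 and at 5.10 to 5.66 on the other arrays, so it too was highest there. Ppbp, the gene of the chemokine CXCL7 in that cluster, was at 8.24, 10.06 and 10.14 in wild type and 10.86, 12.28 and 10.73 in T173I. Its difference of 1.81 had a 95% interval of 0.32 to 3.30 (limma adjusted p = 0.47). Cxcl5 ranged from 6.13 to 8.22 with no separation of the groups, and Pf4, Cxcl3 and Cxcl15 were under the filter.

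Ccl2, the monocyte chemokine, was under the filter and flat, at 5.19, 5.31 and 5.39 in wild type and 5.19, 5.26 and 5.36 in T173I, a difference of -0.029. Its neighbours Ccl7 and Ccl11 were tested and differed by 0.074 and 0.17, and Ccl12, Ccl8 and Ccl1 were under the filter. Of all 31 other chemokines 16 were tested, with 0 past the adjusted threshold, 1 higher and 1 lower when p under 0.05 was taken without adjustment (4.88% and 5.31% of all genes tested), and a median difference of -0.035. Ccl5, which attracts T cells and monocytes, was the lower of these, by -0.71 with all T173I arrays below (limma adjusted p = 0.45), and Cxcl10, an interferon-induced chemokine, differed by -1.04 with overlapping groups (limma adjusted p = 0.49). Among the T173I arrays Cxcl10 was highest on replicate 2, at 9.36, which lay within its wild-type range of 9.15 to 10.16. Cxcl1 and Ppbp were also highest on that array. Ccl5 and Ccl28, at 6.45 and 6.53 there, instead had their lowest values of the 6 arrays.

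Cx3cl1, fractalkine, was at 7.93, 7.92 and 8.01 on the wild-type arrays. It was at 8.25, 7.25 and 7.68 on T173I replicates 1, 2 and 3. Replicate 1 lay above the wild-type range and replicates 2 and 3 below it. The means were 7.95 ± 0.050 (SD, n = 3) and 7.73 ± 0.50 (SD, n = 3), a difference of -0.23 that became -0.49 without T173I replicate 1 and 0.0082 without T173I replicate 2. On T173I replicate 2, where Cxcl1 was 1.29 above its wild-type mean, Cx3cl1 stood at -0.70 relative to its own. Cx3cr1, the fractalkine receptor, was at 6.44, 6.57 and 6.63 in wild type and 6.19, 6.39 and 6.16 in T173I, which gives -0.30 for the difference and -0.53 to -0.063 for its 95% interval (limma adjusted p = 0.45). It was the 1 gene, on the lower side, past an unadjusted p of 0.05 (5.31% of all genes tested) among 8 tested chemokine receptors of 23, none of which passed the adjusted threshold. Cxcr2, the CXCL1 receptor, had group means of 5.72 and 5.72, and Ccr2, the CCL2 receptor, was under the filter.

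**Figure D3:**
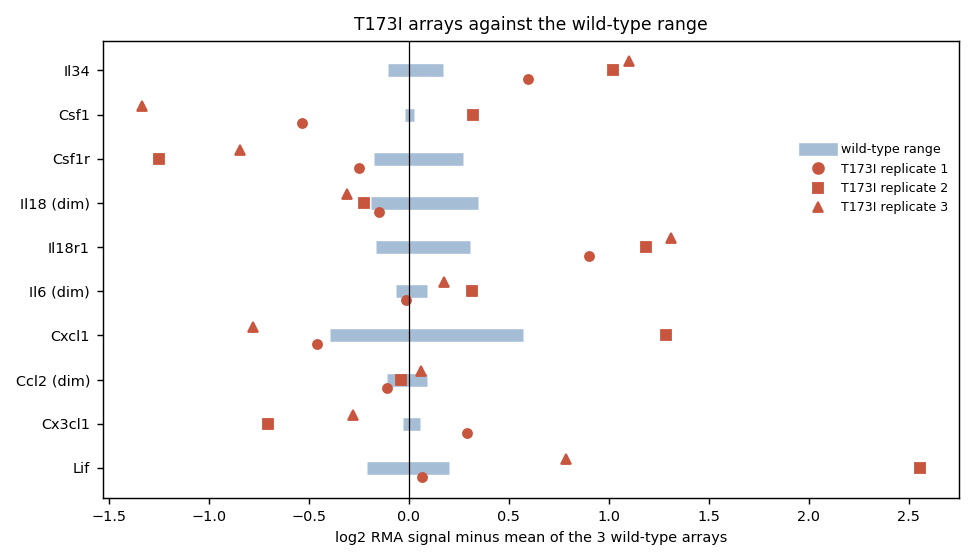
Log2 RMA signal on each T173I array minus the mean of the 3 wild-type arrays (horizontal axis) for the 10 genes; blue bars span the wild-type arrays and red symbols are T173I replicates 1, 2 and 3. Lif on replicate 2 lies farthest out, at 2.56, and Csf1, Cxcl1 and Cx3cl1 have T173I arrays on both sides of the wild-type range.

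Among proteases and integrins that release or bind these ligands, 10 of 11 genes were tested, 0 passed the adjusted threshold, and 2 higher and 0 lower genes reached p under 0.05 before adjustment (4.88% and 5.31% of all genes tested). Adam10 and Adam17, the main sheddases of fractalkine, differed by -0.31 and -0.049. Adam8, a related metalloprotease, was at 5.53, 5.67 and 5.49 in wild type and 6.21, 6.43 and 6.90 in T173I. Its groups did not overlap, and its difference of 0.95 had a 95% interval of 0.53 to 1.37 (limma adjusted p = 0.45). Without T173I replicate 1 it was 1.10 and passed (adjusted p = 0.046). Itgb3, an integrin subunit, differed by 0.39 (limma adjusted p = 0.45), and Adam9 by 0.14.

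A list drawn up as decay and stability factors of cytokine RNAs was also read. All 12 of its genes were tested, and 0 passed the adjusted threshold. In limma's test, 0 higher and 1 lower gene reached p under 0.05 before adjustment (4.88% and 5.31% of all genes tested). The list's median difference was -0.086. Zfp36l1, which binds AU-rich elements, differed by -0.31 with all T173I arrays below (limma adjusted p = 0.48), and Zfp36, tristetraprolin, by -0.34 with overlapping groups (limma adjusted p = 0.52). Tia1, a translational repressor, differed by -0.20 and Tiparp, an enzyme of the poly-ADP-ribose polymerase family, by -0.30.

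**Figure D4:**
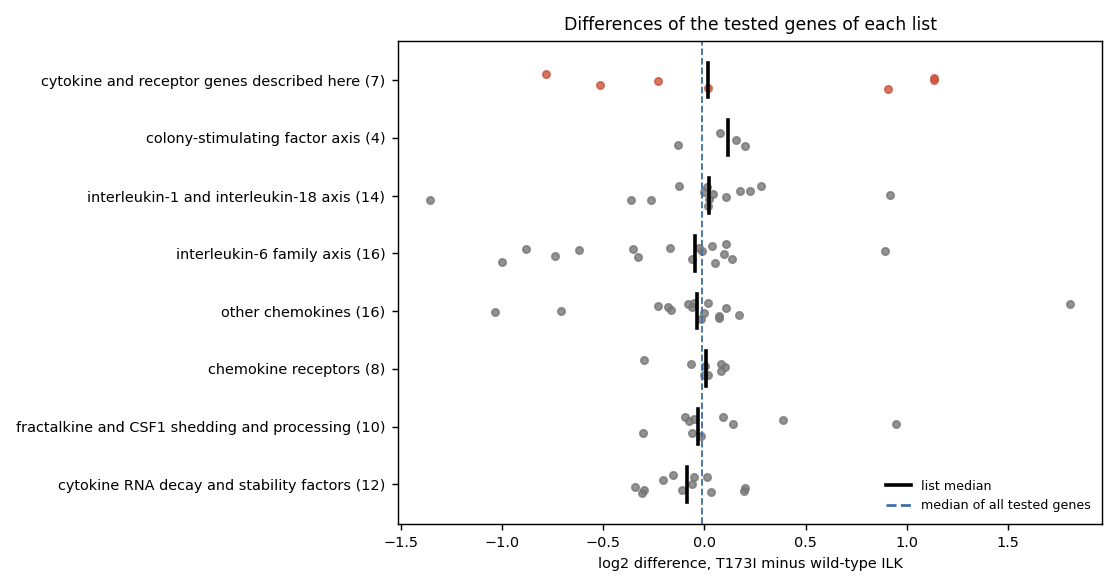
Log2 difference, T173I minus wild-type ILK (horizontal axis), of each tested gene of the members and of 7 further lists, with the number tested in parentheses; black bars are list medians and the dashed line is the median of all genes tested, -0.011. The list medians lie between -0.086 and 0.12, and single genes such as Ppbp at 1.81 and Casp4 at -1.36 lie far from them.

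Over the whole comparison, limma's test called 0 of 13308 genes at an adjusted p under 0.05 (0% called), with a lowest adjusted p of 0.34. Before adjustment 1357 genes (10.2%) had a p under 0.05. Without T173I replicate 1 the test called 156 genes, and leaving out any other array it called 0. Of the genes in the 7 pathway lists, Il1rn, Il6st and Adam8 were among the 156.

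The genes whose profiles over the 6 arrays lay closest to the 3 most variable members were looked up by the root mean square difference of profiles, each centred on its own mean. For Lif they were Rgs16 (0.16), a regulator of G-protein signalling, Tnc (0.17), tenascin-C, and Nrg1 (0.22), an ErbB ligand, all of which peaked on T173I replicate 2, where Rgs16 was at 8.70 against 5.72 to 6.47 elsewhere. For Cxcl1 they were Fosl2 (0.31), an AP-1 subunit, Id3 (0.32), an inhibitor of helix-loop-helix factors, and Tnfaip3 (0.33), the NF-kB feedback inhibitor A20, which also peaked on that array. For Il18r1 they were Dock5 (0.12), a guanine nucleotide exchange factor, Vsnl1 (0.14), a calcium sensor, and Tnfrsf21 (0.14), a death receptor, all of which were lowest on wild-type replicate 1 and highest on T173I replicates 2 or 3. With 6 arrays and 13308 genes, such nearness is a description of these arrays.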

How the data were processed

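RNA from 6 samples of IMCD cells, 3 per group, was measured on Affymetrix whole-transcript arrays. Per the submitters' processing notes, the deposited log2 values were made with RMA, which makes the arrays' signal distributions alike, so a shift of most transcripts one way would not be seen. The sources used here name no RMA version or probe set definition. Array medians of 5.45 to 5.52 fit a log2 scale. Arrays have no read depth; their number limits the precision. No detection calls were used.

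Of 41345 probe sets, 23521 had 1 gene symbol, and the one with the highest mean stood for its gene. Genes under the lowest 40% of means were left out of the test. Limma 3.58.1 (R 4.3.3, lmFit and eBayes, two-sided) compared T173I with wild type over all 6 arrays, with Benjamini-Hochberg adjustment over the 13308 genes tested. The scripts were tested on simulated data. The members, lists and tests were chosen with earlier results of these data known. Named genes were the members, up to 4 per list with the smallest p, and the 3 genes nearest in profile to each of the 3 most variable members, leaving out predicted and RNA genes. Markers were named by list. Further genes, such as Il1r1, Il18bp, Cxcl2, Adam17, Cxcr2 and Ctf1, were named outside that rule. Same-numbered arrays did not deviate together (correlations of their deviations 0.049, 0.067 and 0.048), so numbers were not treated as pairs. A protein comparison was planned and not made. Alternatives covered the filter, prior, scaling, probe set rule, array weights, replicate block and each array left out.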

Additional observations from a re-analysis of the deposited data

How the results depend on the processing

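No gene passed under another filter, prior, scaling, probe set rule, array weights or the replicate block; the fit with the replicate block called 0 genes, with a lowest adjusted p of 0.15, and changed no call. With array weights the lowest adjusted p was 0.069, and 2856 genes had an unadjusted p under 0.05, against 1357 without weights. With single arrays left out, the count of genes past the adjusted threshold ran from 0 to 156, the latter without T173I replicate 1. The count of members whose groups do not overlap was 3 under every scaling, and 3 to 5 with single arrays left out. Leaving out an array narrows a group, so it can keep or raise this count but never lower it. The share over all genes was not computed for those settings, so nothing is read from the rise. Lif and Cx3cl1 joined without T173I replicate 1, Csf1 and Cxcl1 without T173I replicate 2, and Lif without wild-type replicate 3. Of 100 recomputed member differences, 100 lay within 1 SD of the reported value, an SD that is wide in the T173I group. Leaving out 1 of 3 arrays cannot move a difference by that much, so this outcome was fixed for those settings. The probe set rule could not move it either, as each member had 1 probe set. The count therefore says little about stability. The sign of the Cxcl1 difference turned in 3 of the 100, that of Ccl2 in 2 and that of Cx3cl1 in 1, all by leaving out an array. The scaling by array medians was chosen after seeing the data, and the split of non-overlapping genes was 1196 above and 969 below under it, against 962 and 1058. Il18, Il6 and Ccl2 are limited by low signal.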
